A study of Sus scrofa with 17 samples.

Results

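The 7 genes described here, NAV2, YPEL2, ENTPD4, RHOBTB2, GALNT16, GRIP2 and RAI2, had higher expression in the longissimus muscle of piglets fed a seaweed diet with ulvan lyase than in control piglets. They were chosen by name with the measured difference between these diets (ULU vs Control) in view, out of 31908 genes in the count table, and all 7 were among the 14203 genes that passed the filter on low counts and were tested. Their values in that comparison are therefore a description, with no test, and support nothing further.

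The study fed male Large White × Duroc piglets, 28 days old at entry, for 2 weeks after 5 days of adaptation, in individual metabolic cages and pair-fed, and asked how the seaweed and the enzyme affect muscle. The Control diet (6 libraries) was based on wheat, maize and soybean meal. The UL diet (6 libraries) held 7% of the green seaweed Ulva lactuca, and the ULU diet (5 libraries) held the same 7% and 0.01% of ulvan lyase, which cleaves ulvan, a polysaccharide of the seaweed's cell wall. Each library came from the muscle of 1 piglet and was sequenced with reads of 75 nt, so p-values measure the spread between piglets. The libraries held from 16137365 to 26546810 reads assigned to genes. Their median was 17240387 for Control, 18398491.5 for UL and 22320520 for ULU. Levels are given as TMM CPM, the reads of a gene relative to the size of its library after scaling by a TMM factor, and levels of different genes are compared only as TMM RPKM, which is CPM per kb of exons. Values after the sign ± are SDs over the libraries of a diet, 6 for Control (n = 6), 6 for UL (n = 6) and 5 for ULU (n = 5). A signal of 3 reads, taken as the smallest detectable, corresponded to between 0.13 and 0.195 CPM and covers counting error only.

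The genes belong to unrelated families. ENTPD4 is a nucleoside diphosphatase of the Golgi and lysosomes, and GALNT16 is one of the Golgi enzymes that attach the first sugar of mucin-type O-glycans to proteins. NAV2 and RAI2 are both known as genes induced by retinoic acid in cultured cells, and the others act as scaffolds, ubiquitin ligase adaptors or small zinc-binding proteins.

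Markers of the labelled tissue were abundant. Of 9 skeletal muscle markers, 6 could be matched to a gene, all 6 were tested, and their summed level was 138958 ± 24606 CPM in Control, 169425 ± 19785 CPM in UL and 200774 ± 43892 CPM in ULU. ACTA1, skeletal muscle actin, had the most reads of them. A gene that leads a list here is the one with the most reads in it, which depends on its length as well as its level.

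The library of ULU replicate 43 stood apart in its scaling. Its TMM factor was 0.765, while the other libraries lay between 0.925 and 1.21, and it had the largest number of counted reads of the 17 libraries. Its summed skeletal muscle level of 270080 CPM was also the highest. Without it the mean in ULU was 21.5 CPM for GRIP2 (25.0 CPM with it), 24.0 CPM for YPEL2 (27.0 CPM with it) and 25.4 CPM for RHOBTB2 (27.8 CPM with it), and the skeletal muscle level was 183447 ± 23818 CPM.

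ENTPD4 (ENSSSCG00000031871) lies on chromosome 14 from 7565604 to 7594057 of the assembly Sscrofa11.1, on the minus strand, and had 15 exons once overlapping ones were merged. It had the highest level per kb of the 7 genes, 5.08 ± 0.556 RPKM in Control, 7.74 ± 1.03 RPKM in UL and 10.2 ± 1.51 RPKM in ULU. The Control libraries ranged from 24.5 to 32.8 CPM with a median of 30.9, and the UL libraries from 35.8 to 51.9 CPM with a median of 45.6. The ULU libraries had 69.2, 67.9, 50.9, 62.2 and 51.0 CPM in replicates 40 to 44. Every UL and every ULU library was thus above every Control library, while ULU replicates 42 and 44 lay within the range of UL.

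GALNT16 (ENSSSCG00000002306, chromosome 7, 92929069 to 93041442, plus strand), the other Golgi enzyme, had nearly equal levels in Control and UL. Levels in Control ranged from 3.82 to 7.64 CPM with a median of 4.67, and the UL libraries from 3.12 to 7.91 CPM with a median of 5.41. In ULU the levels were 12.6, 7.41, 11.5, 10.7 and 14.3 CPM in replicates 40 to 44. ULU replicate 41 overlapped with both other diets, and the other 4 ULU libraries lay above all of them.

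NAV2 (ENSSSCG00000013351, chromosome 2, 39266913 to 40077925, minus strand) encodes a protein bound to the cytoskeleton that takes part in the outgrowth of nerve cells. The Control libraries ranged from 1.89 to 2.93 CPM with a median of 2.79, and the UL libraries from 3.50 to 5.50 CPM with a median of 4.34. The ULU libraries had 5.81, 7.34, 10.8, 10.2 and 6.08 CPM in replicates 40 to 44. The ranges of the 3 diets did not overlap, and ULU replicates 42 and 43 were the highest. An unnamed gene on the opposite strand lies within the span of NAV2 without sharing exonic bases, and had no read in any library.

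RAI2 (ENSSSCG00000012153, X chromosome, 14244279 to 14309143, minus strand) encodes a nuclear protein that binds the CtBP corepressors. It was the lowest of the 7 genes, with between 4 and 40 reads per library, and its counting error was correspondingly large. Levels in Control ranged from 0.255 to 1.08 CPM with a median of 0.797, and the UL libraries from 0.752 to 0.978 CPM with a median of 0.855. In ULU the levels were 1.75, 1.49, 1.52, 1.53 and 1.56 CPM in replicates 40 to 44. The ULU libraries lay above all others, and the UL range lay within that of Control.

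RHOBTB2 (ENSSSCG00000009638, chromosome 14, 7223257 to 7254804, plus strand) encodes an adaptor of Cullin-3 ubiquitin ligases. The Control libraries ranged from 8.65 to 14.5 CPM with a median of 13.5, and the UL libraries from 10.8 to 26.2 CPM with a median of 17.8. The ULU libraries had 26.3, 30.4, 23.0, 37.3 and 21.9 CPM in replicates 40 to 44. ULU lay above Control throughout, while UL overlapped with both.

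GRIP2 (ENSSSCG00000011599, chromosome 13, 69949584 to 70088719, plus strand) is a scaffold protein with PDZ domains that binds AMPA receptors at synapses. Levels in Control ranged from 8.18 to 15.1 CPM with a median of 11.4, and the UL libraries from 11.4 to 30.2 CPM with a median of 16.2. In ULU the levels were 19.4, 17.5, 20.5, 39.2 and 28.5 CPM in replicates 40 to 44. UL overlapped with both other diets, and ULU replicate 43 was the highest library.

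YPEL2 (ENSSSCG00000035400, chromosome 12, 35573495 to 35644200, plus strand) belongs to the yippee-like family of small conserved proteins with a zinc-binding domain. The Control libraries ranged from 8.73 to 14.4 CPM with a median of 11.8, and the UL libraries from 11.12 to 18.8 CPM with a median of 14.9. The ULU libraries had 24.9, 19.2, 25.4, 39.0 and 26.3 CPM in replicates 40 to 44. ULU lay above both other diets, with replicate 43 far above the other 4, and the ranges of Control and UL overlapped.

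**Figure D1:**
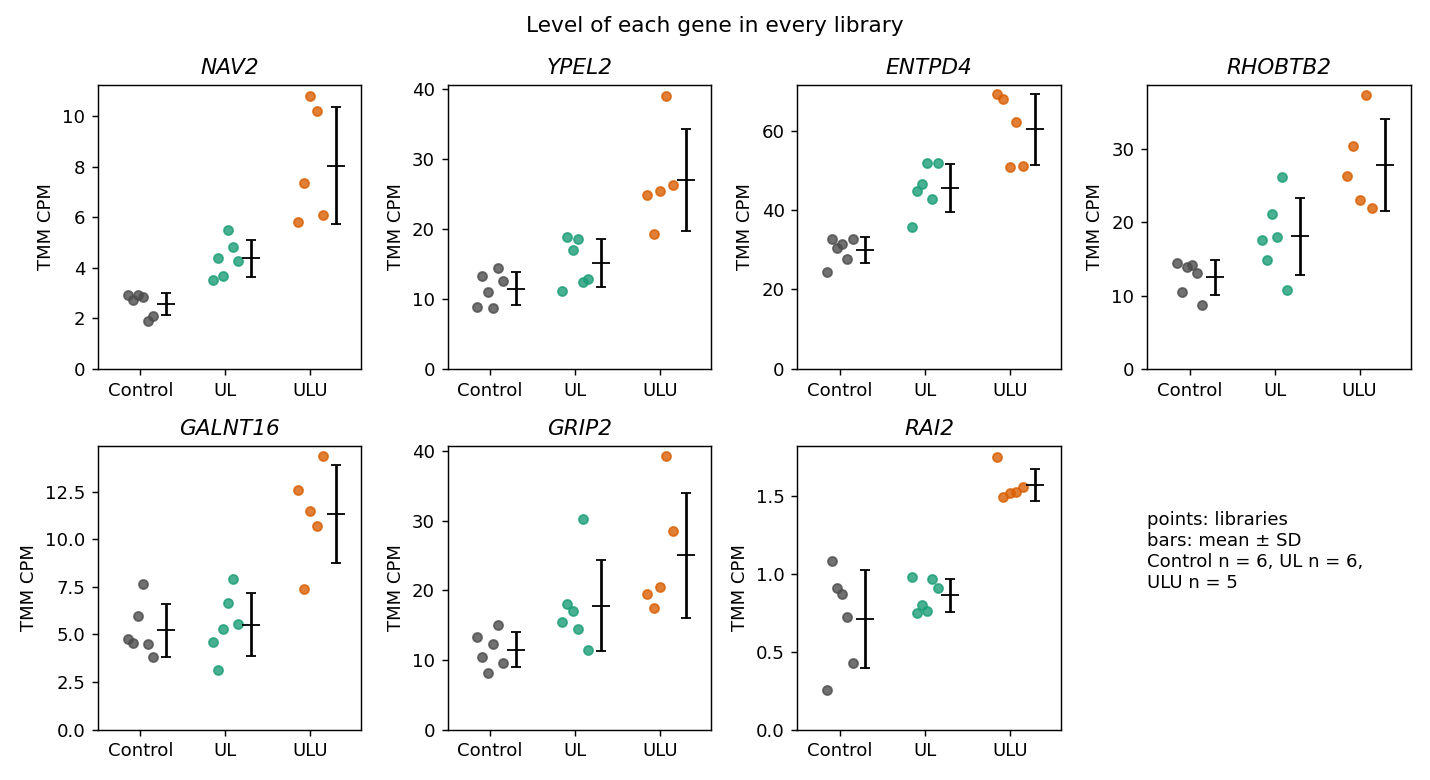
TMM CPM of each of the 7 genes (one panel each, vertical axis from 0) in every library of Control (n = 6), UL (n = 6) and ULU (n = 5), with the mean ± SD beside the points. The ULU points lie above all Control points in 6 of the 7 panels, and in the panel of GALNT16 the lowest ULU library overlaps with Control.

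Per kb of exons, ENTPD4 was followed in ULU by YPEL2 with 5.53 ± 1.495 RPKM, RHOBTB2 with 5.21 ± 1.17, GRIP2 with 3.44 ± 1.23, GALNT16 with 2.82 ± 0.642, NAV2 with 0.763 ± 0.220 and RAI2 with 0.341 ± 0.0223 RPKM. YPEL2 and RHOBTB2 differed by less than their spread, as did GRIP2 and GALNT16. In Control the order of the means was the same, and in UL RHOBTB2 at 3.39 ± 0.989 RPKM came before YPEL2 at 3.10 ± 0.697 RPKM.

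Differentially expressed genes (DEGs) are those with an adjusted p-value (Benjamini-Hochberg) under 0.05 in edgeR's quasi-likelihood test whose log2(fold change) was 1 or more in either direction. In ULU vs Control all 7 genes met both thresholds, as their choice requires, while 0.134% of the 14203 genes tested were DEGs with higher expression in ULU. For 6 of the 7 every ULU library lay above every Control library, as did 2.3% of all genes tested. Both counts follow from the choice of the genes. Among the 7 genes, NAV2 had the highest log2(fold change) in ULU vs Control, 1.65 (standard error 0.20). It was followed by YPEL2 at 1.24 (standard error 0.19), RHOBTB2 at 1.16 (standard error 0.20) and RAI2 at 1.13 (standard error 0.30). Then came GRIP2 at 1.12 (standard error 0.24), GALNT16 at 1.12 (standard error 0.22) and ENTPD4 at 1.01 (standard error 0.12).

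Of these, ENTPD4 lay just inside the limit on the fold change, and RAI2 just inside that on the adjusted p-value (0.0485 from edgeR's test). FAM78A and EMP2 lay just under the fold limit with log2(fold change) values of 0.99 and 0.99, and STAC and PROB1 just over the adjusted p-value with 0.0517 and 0.0524 from edgeR's test. The other 12 DEGs higher in ULU were MAMSTR at 1.01, CXXC5 at 1.08, ARNTL (also named BMAL1) at 1.69, HOXC5 at 1.27, TNNT1 at 1.30, ATP8A2 at 1.51, MYH6 at 1.11, KLHL25 at 1.07 and NFIL3 at 1.09 on the log2 scale, and 3 genes without a symbol. NFIL3 had the same adjusted p-value as RAI2.

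The comparison of UL with Control asks what the seaweed does without the enzyme, and that of ULU with UL what the enzyme adds. Each shares libraries with the comparison that chose the genes (Control in the first and ULU in the second), so their values are set side by side only. In UL vs Control none of the 7 genes was a DEG with edgeR, and 0% of all genes tested were DEGs with higher expression. For 2 of the 7, NAV2 and ENTPD4, every UL library lay above every Control library, as for 0.493% of all genes tested. An unadjusted p-value under 0.05 was reached by 5 of the 7 genes and, with higher expression in UL, by 829 of all genes tested. DESeq2 called 2 genes higher in UL when fitted to these diets and 3 when fitted to all libraries, after its own filter had left 9992 and 9754 genes, and edgeR called 1 without Control replicate 25. With p adjusted over the genes that edgeR tested, a choice made after seeing the data, DESeq2 called 6 and 12 genes, none of the 7 among them.

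In UL vs Control the log2(fold change) was 0.77 (standard error 0.19) for NAV2, 0.63 (standard error 0.23) for GRIP2, 0.61 (standard error 0.11) for ENTPD4, 0.54 (standard error 0.19) for RHOBTB2, 0.40 (standard error 0.18) for YPEL2, 0.26 (standard error 0.30) for RAI2 and 0.08 (standard error 0.22) for GALNT16. The adjusted p-values from edgeR's test ranged from 0.117 for ENTPD4 to 0.926 for GALNT16. The value of GALNT16 was smaller than its standard error and turned to -0.046 without UL replicate 31 and to -0.035 with the mitochondrial share as a covariate. With library totals in place of TMM factors its mean log2 CPM differed by -0.01 between UL and Control, and by 0.05 relative to the median of all genes.

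In ULU vs UL none of the 7 genes was a DEG with edgeR, and 0% of all genes tested were DEGs with higher expression. For 3 of the 7, NAV2, YPEL2 and RAI2, every ULU library lay above every UL library, as for 1.09% of all genes tested. All 7 had an unadjusted p-value under 0.05, as had 875 of all genes tested with higher expression in ULU. DESeq2 called 2 genes higher in ULU when fitted to these diets and 2 when fitted to all libraries, after its own filter had left 4585 and 5769 genes, without GALNT16, NAV2 and RAI2. With p adjusted over the genes that edgeR tested, again chosen after seeing the data, DESeq2 called 9 and 5 genes, and GALNT16 was one of them in both fits (adjusted p = 0.00290 and 0.00360 from DESeq2). The call of GALNT16 thus depends on the tool and the filter. With edgeR 1 gene was called without Control replicate 21, Control replicate 23, UL replicate 27 or UL replicate 32. The log2(fold change) was 1.04 (standard error 0.22) for GALNT16, 0.88 (standard error 0.19) for NAV2, 0.86 (standard error 0.30) for RAI2, 0.83 (standard error 0.19) for YPEL2, 0.62 (standard error 0.20) for RHOBTB2, 0.49 (standard error 0.24) for GRIP2 and 0.40 (standard error 0.12) for ENTPD4. The adjusted p-values from edgeR's test ranged from 0.104 for GALNT16 to 0.459 for GRIP2.

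**Figure D2:**
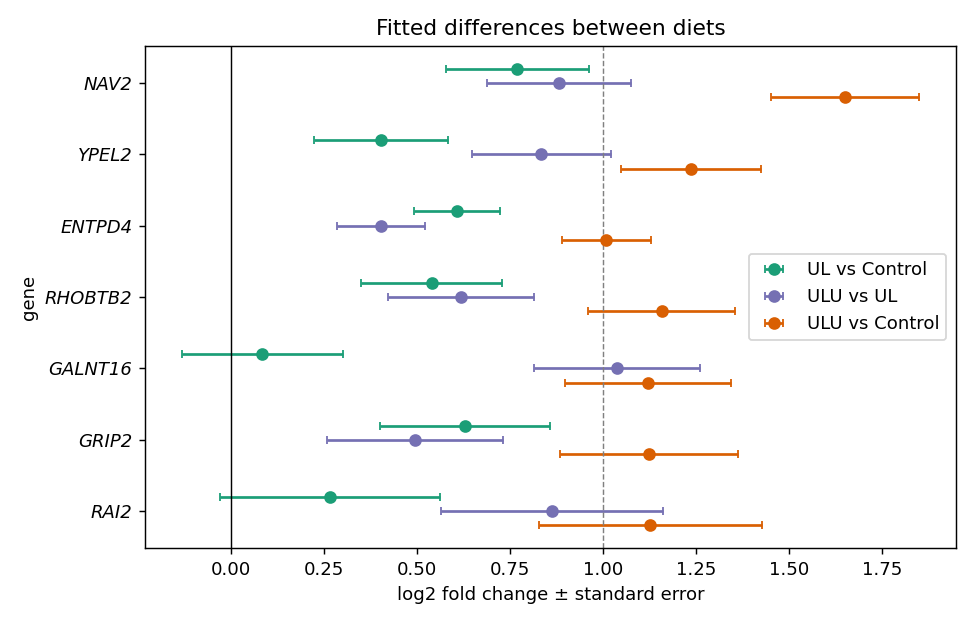
Log2(fold change) with its standard error (horizontal axis) of each gene (vertical axis) in UL vs Control, ULU vs UL and ULU vs Control, and the limit of 1 as a dashed line. GALNT16 is at 0.08 in UL vs Control and at 1.04 in ULU vs UL, while ENTPD4 is at 0.61 and 0.40.

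The mean share of counts on the mitochondrial chromosome was lower in both seaweed diets than in Control. It was 14.8% ± 0.697 in Control, 11.6% ± 2.11 in UL and 10.2% ± 1.47 in ULU. Every ULU library lay below every Control library (two-sided exact permutation test, p = 0.00433, adjusted p = 0.0519 over 12 comparisons of library measures). No difference between 5 and 6 libraries can give a smaller p in this test, and a single comparison at that p cannot pass the adjusted threshold over 12, so that the adjusted value does not speak against a difference. The comparison UL vs Control gave p = 0.0108 (two-sided exact permutation test, adjusted p = 0.0649). With this share as a covariate, 2 of the 7 genes, NAV2 and YPEL2, were DEGs in ULU vs Control. Of all genes tested, 4 were DEGs with higher expression in ULU in that fit. The share cannot be told apart from the diets. The log2(fold change) in that fit was 1.83 (standard error 0.32) for NAV2, 1.66 (standard error 0.29) for YPEL2, 1.40 (standard error 0.40) for GRIP2, 1.06 (standard error 0.20) for ENTPD4, 1.04 (standard error 0.50) for RAI2, 0.95 (standard error 0.37) for GALNT16 and 0.82 (standard error 0.32) for RHOBTB2, each with a wider standard error than without the covariate. The next smallest adjusted p among the 12 comparisons was 0.169 (exact permutation test).

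The scaling mattered as well. With library totals in place of TMM factors, 2 of the 7 genes were DEGs in ULU vs Control. Of all genes tested, 7 were then DEGs with higher expression in ULU. The median log2 difference of all genes tested between ULU and Control was -0.19 with library totals, compared with -0.01 with TMM. Relative to that median, the log2 difference of NAV2 was 1.59 with library totals and 1.59 with TMM, and that of ENTPD4 was 1.01 with either. Without ULU replicate 43, 4 of the 7 genes were DEGs, and 14 of all genes tested were DEGs with higher expression in ULU. GRIP2 at 0.90, ENTPD4 at 0.99 and RAI2 at 1.13 on the log2 scale were not DEGs in that fit.

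ENTPD4 and RAI2, nearest to the thresholds, depended on single libraries. The log2(fold change) of ENTPD4 was 0.96 without Control replicate 21, 0.99 without Control replicate 25, 0.95 without ULU replicate 40 and 0.96 without ULU replicate 41. RAI2 met both thresholds without Control replicate 25 and without UL replicate 27. In the other 15 of the 17 fits that omitted a library it did not, with log2(fold change) values from 0.96 to 1.30. On the 2 diets compared alone, RAI2 was a DEG neither with edgeR nor with DESeq2. It was also not a DEG with no low-count filter, with library totals or with the mitochondrial share as covariate. It stayed a DEG with DESeq2 on all libraries, with DESeq2 size factors and with no fold change limit. With DESeq2's p adjusted over the genes that edgeR tested, RAI2 was a DEG in both fits. The number of DEGs higher in ULU was 44 without Control replicate 25 and 29 without Control replicate 21, compared with 19.

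Whether piglets of one diet that had more of one gene also had more of another was asked from how far the log2 CPM of each of the 17 libraries lay from the mean of its diet, which does not use the difference between diets. Over the 21 pairs of the 7 genes, Pearson's r had a median of 0.0922 and ranged from -0.395 to 0.597, and 14 of the 21 had a positive r. Over all pairs of tested genes the median r was 0.0 and 49.7% had a positive r. The median of the 7 genes was not tested against other genes. No pair had an adjusted p under 0.05 for r or for Spearman's rho (permutation test, Benjamini-Hochberg over 21 pairs), and 1 pair had an unadjusted p under 0.05 for r. RHOBTB2 and GRIP2 came closest.

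RHOBTB2 and GRIP2 gave the highest value, r = 0.597 (permutation test, p = 0.0234, adjusted p = 0.491), with rho = 0.488 (permutation test, p = 0.0653, adjusted p = 0.686). Without Control replicate 26 and UL replicate 32, the libraries farthest from the median of RHOBTB2, r was 0.486, and without ULU replicate 43 it was 0.509. Among all alternatives r of this pair ranged from 0.448 without UL replicate 31, where GRIP2 stood apart, to 0.713 with the mitochondrial share as a covariate. Within UL r was 0.832 (exact permutation test, p = 0.0583, adjusted p = 0.817, n = 6) and rho 0.600 (exact permutation test, p = 0.242, n = 6). Within Control r was 0.376 (exact permutation test, p = 0.456, adjusted p = 0.821, n = 6) and rho 0.371 (exact permutation test, p = 0.497, n = 6). By r, GRIP2 ranked 195 of 14202 genes for RHOBTB2 and RHOBTB2 ranked 162 for GRIP2, while the next best rank among the 7 genes was 1688, of RAI2 for GALNT16.

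The lowest value belonged to ENTPD4 and GRIP2, r = -0.395 (permutation test, p = 0.159, adjusted p = 0.886), with rho = -0.542 (permutation test, p = 0.0422, adjusted p = 0.686). Leaving out Control replicate 21 and UL replicate 27, most distant from the median of ENTPD4, gave -0.492, and leaving out ULU replicate 43 gave -0.512. Among all alternatives r of this pair ranged from -0.516 without UL replicate 27 to -0.316 without UL replicate 32. ENTPD4 and RHOBTB2, near each other on chromosome 14, had r = -0.154 (permutation test, p = 0.586, adjusted p = 0.940) and rho = -0.172 (permutation test, p = 0.544, adjusted p = 0.882), and r = -0.0927 without the 2 farthest libraries. Their r ran from -0.272 without ULU replicate 44 to 0.0188 without UL replicate 32.

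Within single diets, 42 values of r were computed, 21 in Control and 21 in UL. With 6 libraries the exact test cannot give a p under 0.00139, which becomes 0.0583 after adjustment over 42 values if a single pair reaches it, so that no single pair could pass the threshold and its absence says nothing. The most extreme was that of YPEL2 and RAI2 in UL, r = -0.991 (exact permutation test, p = 0.00139, adjusted p = 0.0583, n = 6), at that smallest p, with rho = -1.0 (exact permutation test, p = 0.00278, n = 6). In Control the same pair had r = 0.347 (exact permutation test, p = 0.499, adjusted p = 0.821, n = 6) and rho = 0.2 (exact permutation test, p = 0.714, n = 6). RAI2 had between 13 and 19 reads in the UL libraries. Over all 17 libraries the pair had r = 0.0499 (permutation test, p = 0.866, adjusted p = 0.940) and rho = -0.194 (permutation test, p = 0.465, adjusted p = 0.882), and r = 0.0562 without ULU replicates 41 and 43, the farthest for YPEL2. Among the alternatives it ran from -0.317 without Control replicate 21 to 0.191 with library totals.

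**Figure D3:**
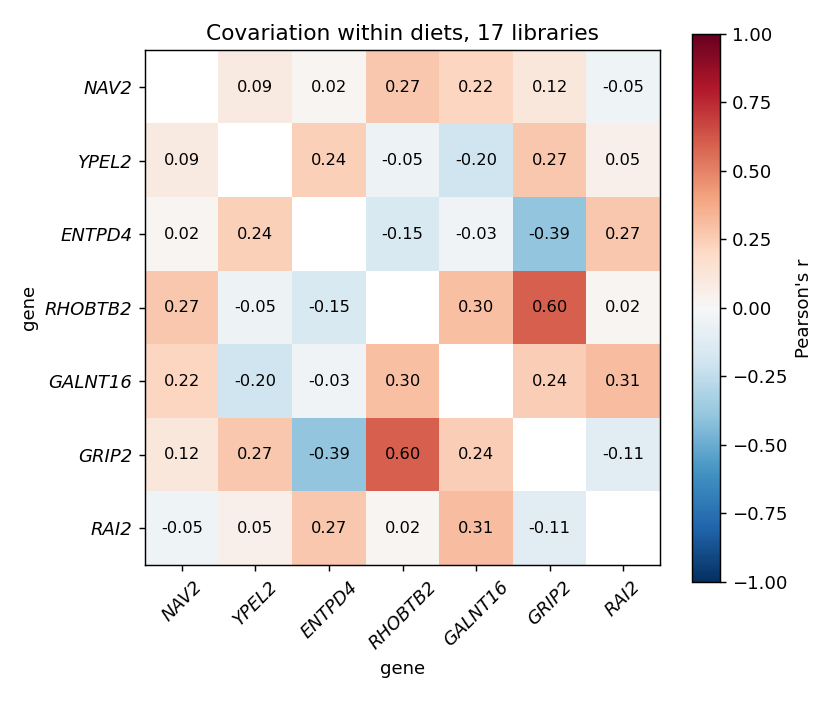
Pearson's r of the deviations from the diet means over 17 libraries for each pair of the 7 genes (both axes list the genes, and the colour runs from -1 to 1). RHOBTB2 with GRIP2 is the darkest red cell, at 0.597 before rounding to the 2 decimals shown, and ENTPD4 with GRIP2 the darkest blue cell.

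**Figure D4:**
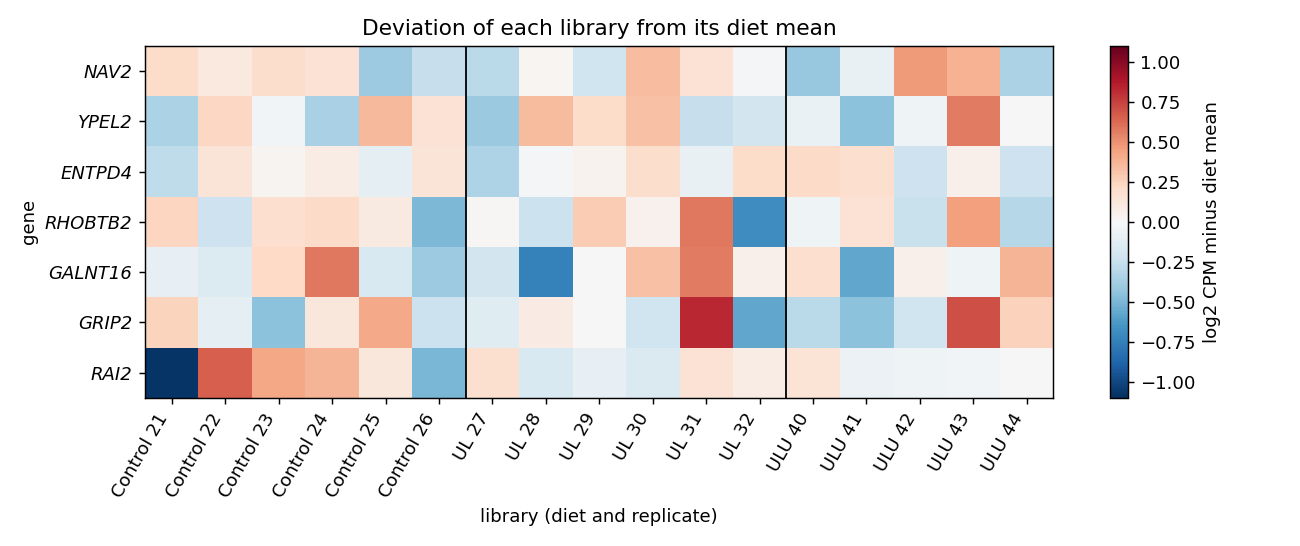
Deviation of log2 CPM from the diet mean (colour) for each gene (vertical axis) in each library (horizontal axis, by diet and replicate, with lines between diets). ULU replicate 43 had 5 of the 7 genes above the diet mean and Control replicate 24 had 6, and RAI2 in Control replicate 21 is the lowest cell at -1.08.

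Averaged over the 7 genes after scaling each to its own spread, the deviation was highest in ULU replicate 43 (0.922) and UL replicate 31 (0.730), and lowest in UL replicate 27 (-0.661). Without ULU replicate 43 the median r over the pairs of the 7 genes was 0.0181. It was 0.212 without ULU replicate 42, 0.184 without Control replicate 25 and 0.148 without Control replicate 24.

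The deviations of the 7 genes were also set beside those of 5 library measures, 35 relations in all, of which none had an adjusted p under 0.05 for r or rho and 1 had an unadjusted p under 0.05 for r. That was YPEL2 with the number of counted reads, r = 0.696 (permutation test, p = 0.00391, adjusted p = 0.137) and rho = 0.608 (permutation test, p = 0.0158, adjusted p = 0.555), and r = 0.598 once the 2 libraries most distant in that number were left out. With the mitochondrial share, one of these measures, as a covariate, the median r over the pairs of the 7 genes was 0.0890 and no pair had an adjusted p under 0.05 (permutation test). The other 4 measures were not tried as covariates.

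The genes most like each of the 7, by r over the same deviations in 17 libraries, were NEK7 for NAV2 (r = 0.839), CLDN5, a tight junction protein of endothelium, for ENTPD4 (r = 0.850, after an unnamed gene), SIRT2 for RHOBTB2 (r = 0.821), FAM151B for GALNT16 (r = 0.842), PHKA1, a subunit of phosphorylase kinase, for GRIP2 (r = 0.815) and TSC1 for RAI2 (r = 0.832). For YPEL2 an unnamed gene came first and TRPM6, a magnesium channel, followed (r = 0.825). With the mean of the scaled deviations of all 7, BICRAL came first (r = 0.910), followed by AFDN (r = 0.799), an unnamed gene, WIZ (r = 0.795) and LYRM9 (r = 0.793). These were the highest of 14202 values for each gene, and no p is given. Next came SPPL3 and SEMA3E for NAV2, TMEM145 for ENTPD4, USP19 and STAC for RHOBTB2, ACKR1 and MAPKBP1 for GALNT16, ZCCHC24 for GRIP2 and MCM3AP for RAI2, beside unnamed genes.

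The 7 genes lie on 6 chromosomes. RHOBTB2 and ENTPD4 are the only pair on one chromosome, where 6 genes lie between them, 5 of which were tested. Of those, CHMP7, a subunit of the ESCRT machinery, differed by 0.55 on the log2 scale in ULU vs Control (adjusted p = 0.00946 from edgeR's test, standard error 0.10), and LOXL2, which crosslinks collagen, by -0.16 (adjusted p = 0.755 from edgeR's test, standard error 0.24). From RHOBTB2 towards ENTPD4, the tested genes between them without a symbol had -0.46, -0.46 and 0.75 on the log2 scale. Their standard errors were 0.18, 0.26 and 0.26, and their adjusted p-values from edgeR's test 0.172, 0.341 and 0.117. The tested gene that follows ENTPD4, which has no symbol, had 0.81 (standard error 0.19, adjusted p = 0.0309 from edgeR's test) and lies 70.95 kb away.

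Next to the other genes, DBX1 beside NAV2 had 0.98 on the log2 scale in ULU vs Control (adjusted p = 0.221 from edgeR's test, standard error 0.43), and EXD2 beside GALNT16 had 0.57 (adjusted p = 0.179 from edgeR's test, standard error 0.23). DHX40 beside YPEL2 had -0.14, SLC6A6 beside GRIP2 0.12 and SCML2 beside RAI2 -0.49 on the log2 scale, and none of these 3 passed the test. The other neighbours with a symbol, E2F8 beside NAV2 at 0.09, PEBP4 beside RHOBTB2 at 0.36, ERH beside GALNT16 at 0.10 and CCDC174 beside GRIP2 at -0.031, did not pass it either. None of the neighbours was a DEG with edgeR.

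Relatives of the 7 genes were looked at as lists of whole families. In each of the 7 families the gene named above was the one DEG in ULU vs Control, and no family member was a DEG in UL vs Control or ULU vs UL with edgeR. Of 18 GALNT genes 12 were tested, with a median log2(fold change) of -0.03 in ULU vs Control, the same as the -0.03 of all genes tested. Of the 12, 5 had a log2(fold change) above 0 in ULU vs Control, GALNT16 included. GALNT11 had 71.4 ± 8.40 CPM in Control and 83.0 ± 4.51 CPM in ULU (log2(fold change) of 0.22, adjusted p = 0.238 from edgeR's test). Of 8 ENTPD genes 6 were tested, with a median of -0.05 in ULU vs Control.

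The RHOBTB family differed in that RHOBTB3 passed the adjusted threshold without reaching the fold limit. It had 112 ± 7.37 CPM in Control, 111 ± 8.30 CPM in UL and 157 ± 32.9 CPM in ULU, with a log2(fold change) in ULU vs Control of 0.49 (adjusted p = 0.0299 from edgeR's test). RHOBTB1 had 0.23 (adjusted p = 0.616 from edgeR's test). In the NAV family, NAV1 had -0.49 and NAV3 0.08, and in the YPEL family YPEL3 had -0.51 and YPEL5 0.08, none of which passed the test. GRIP1 had between 2 and 27 reads per library and -0.56 in ULU vs Control, and SOBP, the relative of RAI2, had 0.16.

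**Figure D5:**
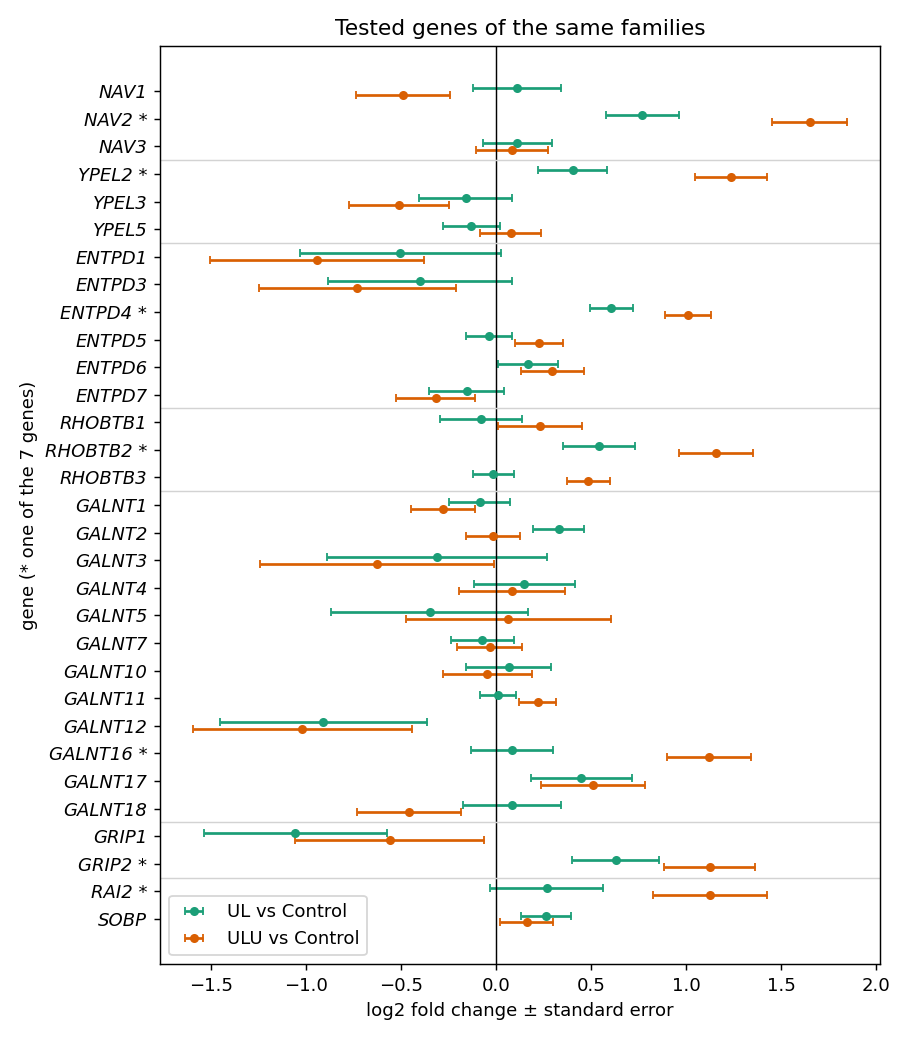
Log2(fold change) with its standard error (horizontal axis) of every tested gene of the 7 families (vertical axis, families separated by lines, the 7 genes marked with an asterisk) in UL vs Control and ULU vs Control. The 7 marked genes are the ones above 1 in ULU vs Control, and GALNT12, at low counts, lies at -1.02.

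Genes that act with these proteins were given by list. Of 8 partners (CUL3 and LRRC41 for RHOBTB proteins, 4 AMPA receptor subunits for GRIP2, CTBP1 and CTBP2 for RAI2) 7 were tested and none was a DEG in any comparison with edgeR. CUL3 had a log2(fold change) in ULU vs Control of 0.14, and GRIA4, the AMPA receptor subunit with the most reads, had 12.9 ± 2.66 CPM in Control and 12.01 ± 3.68 CPM in ULU. CTBP2 had 31.4 ± 7.80 CPM in Control and 39.7 ± 4.79 CPM in ULU, which overlap within their spread.

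Of 14 genes of Golgi O-glycosylation other than the GALNT family, 13 were tested and none was a DEG in any comparison with edgeR. Their median log2(fold change) was -0.29 in ULU vs Control, with 4 of 13 above 0, and -0.23 in UL vs Control, beside -0.03 and -0.00266 over all genes tested. C1GALT1, which adds the second sugar to the O-glycan, passed the adjusted threshold alone, with 15.6 ± 3.48 CPM in Control and 10.4 ± 0.462 CPM in ULU (log2(fold change) of -0.59, adjusted p = 0.0495 from edgeR's test).

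Of 21 genes of retinoid signalling and metabolism 17 were tested and none was a DEG in any comparison with edgeR. The median log2(fold change) was -0.10 in ULU vs Control, with 6 of 17 above 0. RXRG, a retinoid X receptor, had 34.1 ± 21.7 CPM in Control, 34.2 ± 9.32 CPM in UL and 71.7 ± 25.8 CPM in ULU (adjusted p = 0.0823 from edgeR's test in ULU vs Control). In ULU vs UL it differed by 1.07 on the log2 scale (adjusted p = 0.263 in edgeR, standard error 0.33). DESeq2, unlike edgeR, called RXRG higher in ULU vs UL, with adjusted p = 0.00174 when fitted to these diets and 0.0405 when fitted to all libraries, the latter call being lost once p was adjusted over the genes that edgeR tested. It also called RXRG higher in ULU vs Control when fitted to all libraries, and not when fitted to these 2 diets. ALDH1A1, which makes retinoic acid, had 51.5 ± 9.20 CPM in Control and 33.7 ± 8.23 CPM in ULU (adjusted p = 0.178 from edgeR's test).

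All 19 clock genes of the list were tested, and 2 were DEGs with higher and 3 with lower expression in ULU vs Control, beside 0.134% and 0.282% of all genes tested. The list was chosen with earlier results of these data known, so these counts are a description. ARNTL and NFIL3 were higher, and PER1, PER2 and PER3, which repress ARNTL's targets, were lower. CLOCK at 0.48 and CRY2 at -0.63 on the log2 scale passed the adjusted threshold alone (adjusted p = 0.0391 and 0.00834 from edgeR's test). ARNTL had 6.14 ± 2.42 CPM in Control, 6.96 ± 2.04 CPM in UL and 19.8 ± 5.78 CPM in ULU, so that, like GALNT16, it had close means in Control and UL. PER2 was a DEG in ULU vs UL as well, with a log2(fold change) of -1.48 (adjusted p = 0.00858 from edgeR's test), where 0.0141% of all genes tested were DEGs with lower expression. DESeq2's own filter left PER2 out of that comparison. Over the genes that edgeR tested, DESeq2 called ARNTL higher and PER2 and PER3 lower in ULU vs UL.

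Markers of other cell types were summed in each library. Fewer cells of a type and less RNA per cell cannot be told apart in whole muscle. The slow fibre list, of which 6 of 7 genes were matched and MYL2 led, had 3887 ± 1333 CPM in Control, 5934 ± 1498 CPM in UL and 6739 ± 2363 CPM in ULU. All 6 had a log2(fold change) above 0 in ULU vs Control, with a median of 0.72, and TNNT1 was a DEG. MYH7 was the list gene without a match, so its level is not known here. MYH6, a myosin outside the list, was one of the 19 DEGs as well, and whether its reads include some of MYH7 was not tested. The part of slow fibres in the difference of the 19 DEGs between diets was not tested.

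The adipocyte list, led by LPL, had 434 ± 280 CPM in Control, 284 ± 91.7 CPM in UL and 249 ± 77.2 CPM in ULU. Control replicate 24 had 988 CPM, while the other 5 Control libraries lay between 204 and 417 CPM, and the Control mean without it was 323 ± 78.0 CPM. None of its 5 tested genes had a log2(fold change) above 0 in ULU vs Control, none was a DEG, and LEP had between 0 and 30 reads per library. The leukocyte and macrophage list, led by PTPRC, had 83.9 ± 42.5 CPM in Control and 53.9 ± 45.6 CPM in ULU. ULU replicate 42 had 132 CPM, while the other 4 ULU libraries lay between 20.2 and 55.9 CPM, and the ULU mean without it was 34.4 ± 15.3 CPM. The fibroblast list, led by COL3A1, had 5078 ± 1199 CPM in Control and 4118 ± 1257 CPM in ULU. Control replicate 25 had 2640 CPM, while the other 5 Control libraries lay between 5428 and 5724 CPM with a mean of 5566 ± 114 CPM. In ULU, replicate 43 was the lowest at 2248 CPM, and the mean without it was 4585 ± 805 CPM. The part of these cells in the levels of the 7 genes was not tested.

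Within diets ENTPD4 moved with the sum of the smooth muscle and pericyte markers, in which RGS5 held most of the CPM. The tests of these relations were added after the values of r had been seen. Of 70 relations of the 7 genes with the 10 marker sums, 1 had an adjusted p under 0.05 for r and for rho, and 7 had an unadjusted p under 0.05 for r. That was ENTPD4 with the smooth muscle and pericyte sum, led by RGS5, with r = 0.807 (permutation test, p = 0.00037, adjusted p = 0.0259) and rho = 0.804 (permutation test, p = 0.00032, adjusted p = 0.0224), and r = 0.741 once the 2 libraries most distant in that sum were left out. With the endothelium sum, led by PECAM1, ENTPD4 had r = 0.741 (permutation test, p = 0.00259, adjusted p = 0.0906) and rho = 0.672 (permutation test, p = 0.00851, adjusted p = 0.199), and r = 0.643 without the 2 farthest libraries, so that this relation did not pass the adjusted threshold. GRIP2 had r = -0.602 with the smooth muscle and pericyte sum (permutation test, p = 0.0242, adjusted p = 0.438) and rho = -0.703 (permutation test, p = 0.00355, adjusted p = 0.124), and r = -0.805 without the 2 farthest libraries. The means by diet were 134 ± 23.1 CPM in Control and 130 ± 26.7 CPM in ULU for endothelium, and 375 ± 46.0 and 327 ± 44.4 CPM for smooth muscle and pericytes. RGS5 alone had 286 ± 51.1 CPM in Control and 242 ± 48.4 CPM in ULU. The relation with that sum may therefore be one with RGS5 alone, and the relation of ENTPD4 with each marker was not tested. The part of these cells in the level of ENTPD4 was not tested.

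The remaining lists hold cells of nerve, satellite cells and blood. The Schwann cell and nerve list, of which 6 of 7 genes were matched and NCAM1 led, had 48.3 ± 10.1 CPM in Control and 49.3 ± 14 CPM in ULU, and its marker SOX10 had between 0 and 4 reads per library. The satellite cell list, led by CDH15, had 39.2 ± 3.93 CPM in Control and 48.8 ± 9.89 CPM in ULU. The erythrocyte list, of which 2 of 3 genes were matched and HBB led, had 43.3 ± 14.2 CPM in Control and 56.1 ± 14.9 CPM in ULU.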

How the data were processed

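Raw counts of reads per gene were deposited, made by the authors from reads that fastp had trimmed and HISAT2 had placed on the genome. The deposited file's header names featureCounts 2.0.1 and the Ensembl annotation 104 of Sscrofa11.1, with no option for strand, so that reads of overlapping genes on opposite strands cannot be told apart. The authors also deposited a mean signal per gene over the 17 libraries, used here as a check of the count columns alone. Of 31908 genes, 6210 had no count and 15029 had a symbol in the name table.

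The counts were analysed with edgeR 4.0.16 (TMM, filterByExpr, quasi-likelihood F test, 1 model of all 17 libraries) and by DESeq2 1.42.0 (R 4.3.3). Python 3.11.15 with numpy 2.4.6 and scipy 1.17.1 served for the rest. Log2 CPM used a prior count of 2. The members of the list and the other gene lists were chosen with earlier results of these data known. Correlations used 100000 permutations within diets, and library measures an exact permutation test. DESeq2's own filter left between 4585 and 12737 genes with an adjusted p. Adjusting its p over the genes that edgeR tested, and means that leave out a library, were chosen after seeing the data. The tests of relations with library measures and marker sums, and rho within single diets, were added after the values of r had been seen. Tests were checked on simulated data, where DESeq2 made more false calls than edgeR, and the limit on false calls was applied to edgeR alone after that had been seen.

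Of 159 list genes, 145 were matched by symbol, 8 by their RefSeq position on the same assembly and 6 not at all. The rule for a match by position, at least 0.5 of the exonic bases and of the RefSeq span, was tightened after its matches had been seen. The genes named are the 7, the 3 genes most like each and the 5 most like their mean, list genes that were DEGs, the neighbours on the chromosome, the other DEGs higher in ULU vs Control, and genes beside the thresholds. Other list genes named for their levels were chosen after their values were seen. Promoter motifs and the protein data of the study were not analysed here. Alternatives covered the tool, the libraries in the model, the scaling, the filter, the fold limit, the mitochondrial share, the prior count, the correlation measure and leaving out each library.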

Additional observations from a re-analysis of the deposited data

Results flagged for a closer look

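In 21 groups (7 genes in 3 diets) the highest and lowest library were compared with the others, and chance marks about 1 in 20 such groups. GRIP2 in UL replicate 31 had 30.2 CPM, while the other 5 UL libraries lay between 11.4 and 18.1 CPM. RAI2 in ULU replicate 40 had 1.75 CPM, from 40 reads, while the other 4 ULU libraries lay between 1.49 and 1.56 CPM. Both libraries stood far from the others relative to the range of their diet, and no cause was tested. This comparison takes no account of counting error, which is large for RAI2, with 23 to 40 reads in the ULU libraries. The flag of RAI2 therefore cannot tell a difference between piglets from counting error.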

How the results depend on the processing

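The number of DEGs higher in ULU vs Control (19) was 32 with DESeq2 on all libraries, 31 with DESeq2 on the 2 diets and p adjusted over the genes that edgeR tested, 12 with edgeR on the 2 diets compared, 7 with library totals, 4 with the mitochondrial share as covariate and 282 with no fold change limit. Omitting single libraries gave 14 to 44, with 44 without Control replicate 25 and 29 without Control replicate 21. Of the 7 genes, 2 were DEGs with library totals, 2 with the mitochondrial share as covariate, and 4 to 7 with single libraries omitted, with 4 without ULU replicate 43. DEGs higher in UL vs Control (0) numbered 3 with DESeq2 on all libraries, 2 with DESeq2 on the 2 diets, 12 and 6 with these and p adjusted over the genes that edgeR tested, and 0 to 1 with a library left out (1 without Control replicate 25). DEGs higher in ULU vs UL (0) numbered 2 with DESeq2 on all libraries, 2 with DESeq2 on the 2 diets, 5 and 9 with these and p adjusted over the genes that edgeR tested (GALNT16 in both), 1 with the mitochondrial share as covariate, 1 with no fold change limit, 1 with no low-count filter, and 0 to 1 with a library left out (1 without Control replicates 21 or 23 or UL replicates 27 or 32). The log2(fold change) of GALNT16 in UL vs Control turned to -0.0348 with the mitochondrial share as covariate, and ranged from -0.0462 without UL replicate 31 to 0.225 without Control replicate 24. In 34 refits of the 7 genes in ULU vs Control a gene was no longer a DEG, and their direction is fixed by their choice. Adjusting DESeq2's p over the genes that edgeR tested was chosen after seeing the data. Apart from the use of fewer libraries or the dropped limits, the cause was not tested. The mean of RAI2 in ULU was 1.47 CPM with library totals. The median r over the pairs ranged from 0.0181 to 0.212 with a library left out and was 0.191 with library totals, and no pair passed the adjusted threshold under any alternative run. The depth limits RAI2 most, with as few as 4 reads.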
